A study of Mus musculus with 3 samples.

Results

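The genes described here are Sostdc1, Sost, Nog, Chrd, Chrdl1, Grem1, Fst, Fstl1 and Bambi, 9 of the 30406 genes listed in all 3 single-cell RNA libraries of the series. They were chosen by symbol as a family of secreted antagonists of bone morphogenetic proteins (BMPs), and Sostdc1 was included because it stood far higher in nucleus pulposus-like (NP-like) cells than in other cells of the same libraries. Bambi is a membrane protein, not a secreted one. The cells came from intervertebral discs of mice at postnatal day 30 with the genotype shh-cre:R26R-tdTomato and no treatment. Cre expressed from Shh regulation switches on tdTomato permanently, so the label marks cells that expressed Shh and the descendants of such cells. Lumbar, thoracic and caudal discs were digested with collagenase, tdTomato-positive cells were enriched by sorting, and libraries were made by 10x Genomics 3' chemistry, version 3. All 3 libraries belong to the same group. Animals of matched litters were pooled for each, so the replicates below are pools. The p-values rest on a spread between sums that is estimated with information shared over genes. Where only 2 libraries entered, the p-values say little about how 1 gene varies between pools. The question was which antagonist each connective tissue class of the disc and its surroundings expresses.

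BMPs are secreted ligands that signal through serine/threonine kinase receptors to SMAD1, SMAD5 and SMAD9 and induce targets such as the Id genes. Noggin (Nog), chordin (Chrd), chordin-like 1 (Chrdl1) and gremlin 1 (Grem1) bind BMPs outside the cell and keep them from their receptors, and follistatin (Fst) does so mainly for activins. Sclerostin (Sost) and its close relative Sostdc1 bind the Wnt co-receptors LRP4, LRP5 and LRP6, and Sostdc1 also binds BMPs. Fstl1 is a secreted glycoprotein of the follistatin-like group, and Bambi is a pseudoreceptor without a kinase domain that dampens BMP and TGF-beta signals. The nucleus pulposus, the core of the disc, descends from the notochord, which is known in the embryo as a source of both noggin and chordin.

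Promoter sequence was at hand for 4 of the 9 genes, Sost, Chrd, Grem1 and Fstl1, from RefSeq on build GRCm38.p6. The 250 bases before the start are shown for Grem1, which 3 connective classes below express, and for Sost, which had UMIs in 17 cells. Both lie on the minus strand and are read 5' to 3', at chr2:113758649-113758898 for Grem1 and at chr11:101967016-101967265 for Sost. Capitals mark GC boxes (GGGCGG), the GC-rich BMP response element GGCGCC and CCAAT boxes, each sought on both strands.
Grem1: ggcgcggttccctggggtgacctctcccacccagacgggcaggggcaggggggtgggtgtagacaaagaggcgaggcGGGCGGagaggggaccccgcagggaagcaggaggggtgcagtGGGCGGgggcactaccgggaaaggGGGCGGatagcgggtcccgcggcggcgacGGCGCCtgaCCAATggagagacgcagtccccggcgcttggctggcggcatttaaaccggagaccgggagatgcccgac
Sost: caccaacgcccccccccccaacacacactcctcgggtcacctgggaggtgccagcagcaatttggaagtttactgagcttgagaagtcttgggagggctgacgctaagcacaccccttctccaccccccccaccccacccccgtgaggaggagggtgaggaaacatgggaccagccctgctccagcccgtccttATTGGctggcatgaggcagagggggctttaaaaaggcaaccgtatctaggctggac
The Grem1 stretch holds 3 GC boxes, 1 GGCGCC and 1 CCAAT and is 72% G and C. The Sost stretch holds 1 CCAAT box, on the other strand, and is 61.2% G and C. Of 27025 promoter stretches of the same length, 32.94% hold a GC box, 9.536% a GGCGCC and 34.46% a CCAAT box. The short SMAD motif GTCT, not in capitals, is in 83.01% of them, and neither stretch holds TATAAA, which 12.97% hold. The motifs do not overlap each other here, and a match is a description of letters, not a site.

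The libraries counted 64695292, 145925353 and 137188648 unique molecular identifiers (UMIs), from 7430, 11767 and 11032 barcodes in the order of their numbers. After filters on genes and mitochondrial share, 5732, 10786 and 10364 cells remained in libraries 1, 2 and 3. Each was assigned to a class when at least 3 of the class's marker genes had a UMI, and no gene of the family was a marker. Most assigned cells were blood or marrow cells, with 790, 2030 and 2741 B lineage-like cells alone. The connective classes were 520, 157 and 25 NP-like cells, 886, 290 and 51 chondrocyte-like, 56, 56 and 34 annulus or tendon fibroblast-like, 46, 222 and 647 osteoblast-like, 30, 16 and 46 loose fibroblast-like and 11, 25 and 55 marrow stromal-like cells. Each class sum tested below carried all of its own markers. Levels are counts per 1e6 (CPM), the UMIs of a gene over all UMIs in the summed cells of a class. The annulus or tendon-like cells carried cartilage markers, led by Col2a1, at 28327, 32029 and 17633 CPM, more than their own markers at 13828, 10264 and 8999 CPM, so the name stands for the gate and not for a class free of cartilage transcripts. Scrublet, a doublet caller used only as an alternative, marked 6 of 520, 15 of 157 and 21 of 25 NP-like cells in libraries 1, 2 and 3, so the NP-like values of library 3 rest on cells most of which it would remove. Osteoblast markers summed to 8666 CPM in osteoblast-like cells of library 1 against 36922 and 48563 CPM in libraries 2 and 3, so that library's osteoblast-like cells stood apart. Libraries 2 and 3 shared 224 barcodes, 2.03% of the smaller list, library 1 shared 24 with library 2 and 29 with library 3, and removing them is among the alternatives below. A sum of transcripts cannot tell fewer expressing cells from less RNA per cell, so shares of cells are given beside it. Intervals cover counting error only.

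**Figure D1:**
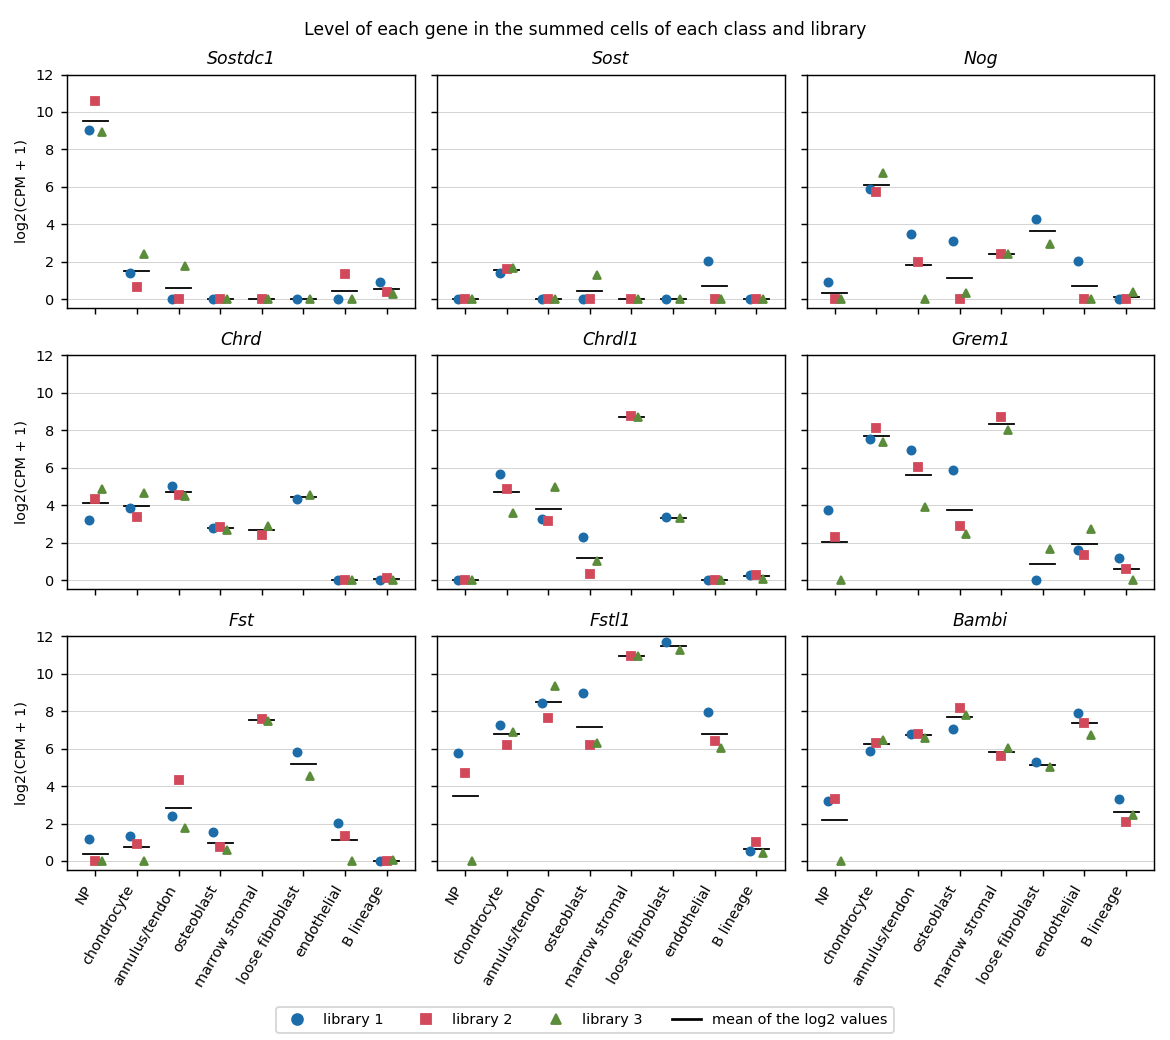
Level of each gene, as log2(CPM + 1), in the summed cells of 8 classes (x axis), with 1 point per library and a bar at the mean of the log2 values. Sums of fewer than 20 cells (10 for NP-like cells) are left out. Sostdc1 is high in NP-like sums, Nog in chondrocyte-like sums, Chrdl1 and Fst in marrow stromal-like sums, Fstl1 in loose fibroblast-like and marrow stromal-like sums, and Sost is near 0 in every class.

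Sostdc1 was an NP-like gene in these cells, and the other members were low or at 0 there. Sostdc1 stood at 522, 1509 and 490 CPM in NP-like cells of libraries 1, 2 and 3, a mean of 840 ± 579 (SD, n = 3). In every other class with enough cells it stood at or below 4.36 CPM, with 0 UMIs in loose fibroblast-like, osteoblast-like and marrow stromal-like cells. The lowest NP-like value was thus far above the highest value elsewhere. This contrast chose the gene and is a description, with no test. With the cells marked by Scrublet removed, library 3 kept 4 NP-like cells, too few to be used, and the mean of libraries 1 and 2 was 1067 ± 761 CPM (SD, n = 2). Sostdc1 (ENSMUSG00000036169) lies on chromosome 12 of build mm10 from 36314139 to 36318452 on the plus strand.

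NP-like cells held 81.7%, 86.7% and 70% of all Sostdc1 UMIs in libraries 1, 2 and 3 and were 9.07%, 1.46% and 0.241% of the filtered cells. Mixed cells held a further 15.7%, 12.2% and 4%. These passed the gates of unrelated classes, or tied between classes in the share of markers, and were dropped. Scrublet marked 159 of 498, 556 of 886 and 407 of 696 of them in libraries 1, 2 and 3, so not all are likely doublets. A Sostdc1 UMI was found in 37.5% of NP-like cells of library 1 (95% exact Clopper-Pearson interval 33.3 to 41.8), in 76.4% of library 2 (69.0 to 82.8) and in 48.0% of library 3 (27.8 to 68.7). B lineage-like cells, taken as the background of free RNA, had shares of 0.506%, 0.246% and 0.146%. Depth differed between these cells, with medians of 2913, 9436 and 2069 UMIs per NP-like cell against 2960, 4281 and 3154 per B lineage-like cell. With each cell thinned to 1000 UMIs, the NP-like shares were 19.6%, 42.7% and 30.4%, so library 2 kept the highest share.

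Sostdc1 was unevenly spread among NP-like cells. The median cell held 0, 7 and 0 UMIs in libraries 1, 2 and 3, while the richest cell held 146, 171 and 9. The richest 10% of cells carried 81.4%, 51.1% and 54.3% of the UMIs. Library 2, with the deepest cells, was the one where most NP-like cells had Sostdc1.

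A split of NP-like cells by their mitochondrial share ran along with Sostdc1. Cells with under 1% of UMIs from mitochondrial genes numbered 430, 33 and 17 in libraries 1, 2 and 3, and the other NP-like cells 90, 124 and 8. With mitochondrial genes left out, Sostdc1 stood at 358 and 146 CPM in the low-mitochondrial cells of libraries 1 and 2, against 804 and 1697 CPM in the other NP-like cells. Library 3, which had too few of the other cells for the fit, gave 390 against 578 CPM. The low-mitochondrial cells were lower in each of the 3 libraries, though their level in library 3 exceeded that in library 1. Sostdc1 had a log2 fold change of -1.70 in libraries 1 and 2 (SE 0.21, adjusted p = 1.33e-13 by the edgeR quasi-likelihood test, Benjamini-Hochberg adjusted over all genes), in a comparison where 20.9% of 7769 genes were called, 8.97% higher and 11.9% lower. Of the 4 members tested, 2 were called. The difference was -0.93 without library 2 and -3.50 without library 1. Both values came from 1 fit over all classes, with mitochondrial genes kept. In it the other NP-like cells were 1 sample, assumed to vary like the other groups. With gates of 2 or 4 markers the difference was not called (-1.15 and -1.60, edgeR adjusted p = 0.0640 and 0.127).

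Other properties moved with this split. Median UMIs per cell were 2544.5, 3450 and 1250 in low-mitochondrial cells against 7998, 10593 and 4442.5 in the other NP-like cells. The 6 cartilage markers summed to a median of 2251, 1526 and 3287 CPM per low-mitochondrial cell against 4295, 4565 and 4284 CPM per other cell. The 6 annulus or tendon markers summed to a median of 337, 112 and 0 CPM per low-mitochondrial cell against 1241, 1210 and 1268 CPM per other cell, so this list was lower in every library too. The mural cell markers summed to 1147, 2071 and 2859 CPM in the low-mitochondrial sums against 581, 1115 and 1330 CPM, with only 1 to 3 of their 6 genes detected. The 4 NP markers were detected in both groups of each library. They summed to a median of 7116, 8595 and 10763 CPM per low-mitochondrial cell against 5222, 6923 and 8200 CPM per other cell. This list was thus higher in the low-mitochondrial cells of every library. The part of depth and of these markers in the Sostdc1 difference was not tested. In library 1, 9 cells within 0.2 percentage points of the limit stood at 3122 CPM of Sostdc1, above the cells on either side.

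**Figure D2:**
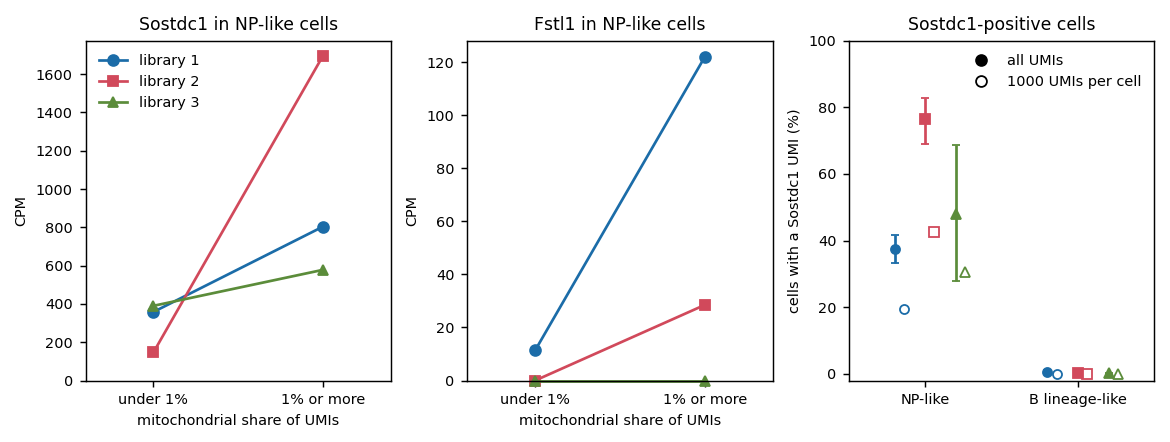
Sostdc1 and Fstl1 levels (CPM, mitochondrial genes left out) in NP-like cells with under 1% and with 1% or more mitochondrial UMIs, 1 line per library, and (right) the share of cells with a Sostdc1 UMI in NP-like and B lineage-like cells with exact 95% intervals, filled for all UMIs and open at 1000 UMIs per cell. Sostdc1 is lower in the low-mitochondrial cells of all 3 libraries. The Fstl1 value of 122 CPM in library 1 rests on 94 UMIs of 1 cell.

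Fstl1 was called in the same split (log2 fold change -3.12, SE 0.45, edgeR adjusted p = 2.38e-10), at 11.3 and 0 CPM in low-mitochondrial cells of libraries 1 and 2 against 122 and 28.5 CPM in the others. Of the 107 Fstl1 UMIs in the other NP-like cells of library 1, 94 came from 1 cell with 73289 UMIs. Without that cell the level there was 16.1 CPM and the log2 fold change was -0.64 (SE 0.59, edgeR adjusted p = 0.496), so the call rested on that cell. Chrd and Bambi were tested too and not called, with log2 fold changes of -1.11 (SE 0.77) and -0.72 (SE 0.85).

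The rest of the family was sparse in NP-like cells. Among 3941962 UMIs of the 702 NP-like cells there were 0 of Sost and 0 of Chrdl1, which allows levels of up to 0.761 CPM, and 2 of Nog and 3 of Fst, each in a single cell. Chrd gave 8.19, 19.3 and 28.0 CPM in libraries 1, 2 and 3, of which the last rests on 2 UMIs. Grem1 gave 12.5, 3.87 and 0 CPM and Bambi 8.19, 9.02 and 0 CPM. The 71370 UMIs of library 3 would show 0 for levels of up to 42.0 CPM, so absence there was not detectable at this depth. Bambi was found in 3.08%, 6.37% and 0% of NP-like cells against 4.30%, 2.41% and 2.77% of B lineage-like cells. In libraries 1 and 3 the NP-like share was at or below this background. In library 2 it was above it, with overlapping exact intervals (3.10 to 11.4 in NP-like and 1.79 to 3.18 in B lineage-like cells) and deeper NP-like cells. At 1000 UMIs per cell the shares were 0.791%, 1.27% and 0% in NP-like cells against 1.53%, 0.347% and 0.658% in B lineage-like cells. Of the embryonic notochord's antagonists, chordin was therefore at a level overlapping that of chondrocyte-like cells at day 30, and noggin was near 0.

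Sost, the antagonist that osteocytes secrete in bone, had UMIs in 17 cells of all 3 libraries together. Chondrocyte-like cells gave 15, 7 and 1 UMIs, in 5, 2 and 1 cells. Of these, 4, 2 and 1 also held Col10a1, the collagen gene of hypertrophic chondrocytes, and 4, 1 and 1 held Phex, a gene of osteocytes and osteoblasts. The osteocyte matrix gene Dmp1 was in 2, 0 and 0 of them. Osteoblast-like cells of library 3 gave 18 UMIs in 3 cells, all with Phex and 2 with Dmp1, so Dmp1 was found in Sost cells of both classes. Endothelial-like cells of library 1 gave 3 UMIs in 2 cells, and the other UMIs lay in cells of mixed or no gate. Sost was below the filter on low counts in every comparison.

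Each connective class was next set against all other connective cells of the same library, NP-like cells left out, with library as a block. Sostdc1 and Sost fell under the filter on low counts in each of these comparisons, and the other 7 members were tested. The other cells were a different mix in each library, mostly chondrocyte-like in library 1 and osteoblast-like in library 3. The 5 comparisons share cells, since each class is among the other cells of the rest, so their results are given side by side and not as independent evidence.

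**Figure D3:**
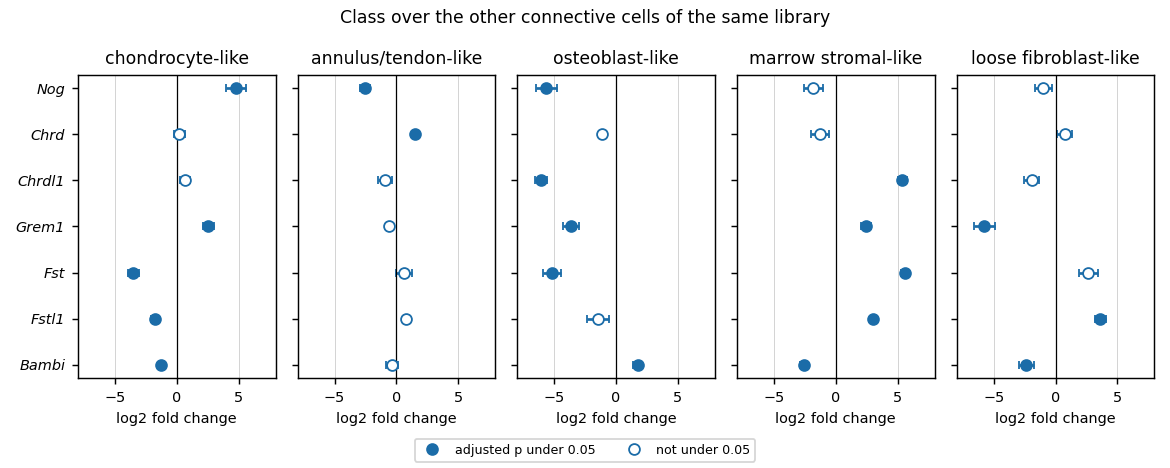
Log2 fold change of 7 members in each connective class over the other connective cells of the same library (x axis), with bars of 1 SE. Filled points had an edgeR adjusted p under 0.05. Nog is called higher in chondrocyte-like cells only, Chrdl1 and Fst in marrow stromal-like cells, Fstl1 in those and in loose fibroblast-like cells, Grem1 in chondrocyte-like and marrow stromal-like cells, Chrd in annulus or tendon-like cells and Bambi in osteoblast-like cells. The Grem1 point of loose fibroblast-like cells rests on 1 UMI.

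Chondrocyte-like cells were the class with noggin, and they also carried Grem1. Nog stood at 58.0, 52.2 and 105 CPM in chondrocyte-like cells of libraries 1, 2 and 3 against 9.50, 1.93 and 0.577 CPM in the other connective cells. Every chondrocyte-like value was above every other value. Nog had a log2 fold change of 4.79 (SE 0.80, edgeR adjusted p = 0.0194), and the call was kept in all 16 alternatives. Of these, the minimum of 10 cells left the sums as they were and could not lose a call. The same holds for osteoblast-like and annulus or tendon-like cells. A Nog UMI was found in 28.2%, 29.3% and 37.3% of chondrocyte-like cells against 0%, 0% and 0.219% of B lineage-like cells, and in 7.50%, 3.79% and 7.84% at 1000 UMIs per cell. The chondrocyte-like median was 8777.5, 10297 and 8022 UMIs per cell.

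Grem1 stood at 188, 278 and 168 CPM in chondrocyte-like cells against 83.6, 32.6 and 13.3 CPM in the other connective cells. The groups did not overlap. Its log2 fold change was 2.56 (SE 0.44, edgeR adjusted p = 0.0205), also kept in all 16 alternatives. In all, 5 of 7 members were called in this comparison, where 12.5% of 11599 genes were, 5.44% higher and 7.03% lower. Nog and Grem1 were the higher ones and Fst, Fstl1 and Bambi the lower ones.

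Fst was nearly absent from chondrocyte-like cells, at 1.49, 0.875 and 0 CPM against 14.6, 12.97 and 7.29 CPM in the other cells (log2 fold change -3.52, SE 0.45, edgeR adjusted p = 0.00926). Fstl1 stood at 152, 72.9 and 118 CPM against 824, 223 and 237 CPM (-1.78, SE 0.26, edgeR adjusted p = 0.0138). For both genes all 3 chondrocyte-like values lay below all 3 of the other cells. The Fstl1 call was lost without library 2 (-1.85, edgeR adjusted p = 0.0673). Bambi stood at 58.9, 78.7 and 87.2 CPM against 96.9, 243 and 210 CPM (-1.28, SE 0.27, edgeR adjusted p = 0.0356). Its ranges did not overlap either, but its call was lost without library 2 (-1.09, edgeR adjusted p = 0.182), without library 3 (-1.15, edgeR adjusted p = 0.110) and in 3 other alternatives. In 1 fit over all classes, which weights the other classes equally, its log2 fold change was 0.0049. Chrd and Chrdl1 were not called, with log2 fold changes of 0.22 (SE 0.42) and 0.68 (SE 0.43).

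Within chondrocyte-like cells Grem1 and Chrdl1 were seldom in the same cell. A Grem1 UMI was found in 10.6%, 10.4% and 0% of chondrocyte-like cells with Chrdl1 in libraries 1, 2 and 3 against 37.6%, 43.4% and 25.5% of those without it. Cells with Chrdl1 were the deeper ones in libraries 1 and 2, with medians of 15432 and 16640.5 UMIs against 6718 and 9172.5, and not in library 3, with 7401.5 against 8022. At 1000 UMIs per cell the expected shares were 2.41%, 3.10% and 0% against 17.0%, 18.8% and 8.05%. Only 4 cells of library 3 held Chrdl1. In marrow stromal-like cells of library 3 the order was the other way. Grem1 was in 91.7% of 36 cells with Chrdl1 against 47.4% of 19 cells without. In library 2 the shares differed little, with 81.2% of 16 cells against 77.8% of 9 cells. At 1000 UMIs per cell the shares of libraries 2 and 3 became 37.6% and 31.3% against 24.7% and 12.4%. Cells of 1 library are not replicates, so these shares are descriptions with no test.

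**Figure D4:**
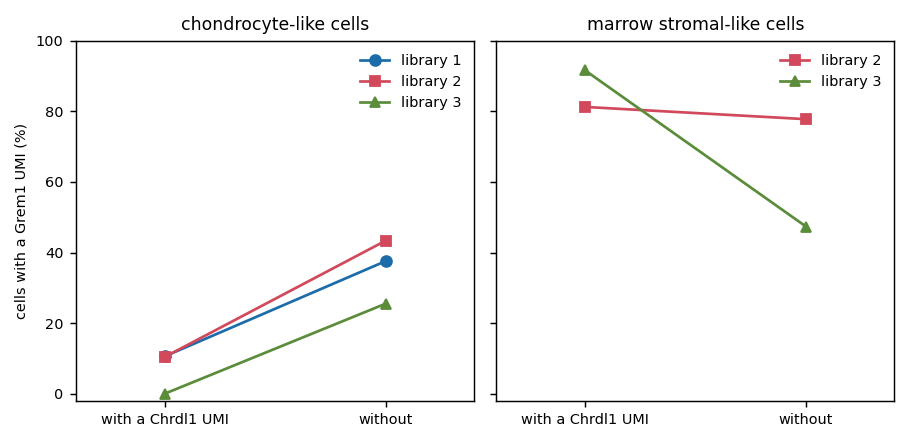
Share of cells with a Grem1 UMI (y axis, %) among cells with and without a Chrdl1 UMI, 1 line per library, in chondrocyte-like and marrow stromal-like cells. Grem1 is rarer beside Chrdl1 in chondrocyte-like cells of all 3 libraries. In marrow stromal-like cells it is more frequent beside Chrdl1 in library 3 and differs little in library 2, with 16 and 9 cells.

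These sets of chondrocyte-like cells also differed in other genes, named after their values were seen and given without a test. Cells with Grem1 alone numbered 262, 105 and 12 in libraries 1, 2 and 3, and cells with Chrdl1 alone 169, 43 and 4. Prg4, which encodes lubricin, stood at 1015, 1141 and 3187 CPM in cells with Grem1 alone against 4.83, 4.78 and 0 CPM in cells with Chrdl1 alone. The matrix gene Cilp stood at 4407, 2132 and 3406 CPM against 23.4, 0 and 2327 CPM. Both belong to the annulus or tendon markers and were higher on the Grem1 side in every library, Cilp by little in library 3. Cilp2, of the same list, stood at 1324, 1318 and 1362 CPM against 207, 107 and 247 CPM. Scx, also of that list, was sparse, at 23.5, 53.0 and 0 CPM against 5.20, 4.78 and 0 CPM. Fmod and Tnmd differed less, with Fmod at 2130, 1652 and 1871 CPM against 1969, 1150 and 1340 CPM and Tnmd at 11.7, 29.3 and 0 CPM against 11.5, 7.16 and 0 CPM. The growth plate signal gene Ihh stood at 0.435, 1.63 and 0 CPM in cells with Grem1 alone against 170, 398 and 1269 CPM in cells with Chrdl1 alone. Col10a1 stood at 329, 103 and 31.3 CPM against 4134, 3073 and 12306 CPM, and Pth1r, the parathyroid hormone receptor gene, at 103, 110 and 172 CPM against 1014, 1249 and 1023 CPM. Acan, the aggrecan gene, differed less, at 3888, 2409 and 2968 CPM against 4528, 3892 and 4408 CPM.

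Marrow stromal-like cells, which support blood formation, held the highest Chrdl1 and Fst of all classes and combined several antagonists. Libraries 2 and 3 entered the test, with 25 and 55 cells. Chrdl1 stood at 427 and 411 CPM in marrow stromal-like cells against 12.6 and 2.53 CPM in the other connective cells (log2 fold change 5.39, SE 0.38, edgeR adjusted p = 7.29e-11). Fst stood at 189 and 181 CPM against 3.82 and 1.23 CPM (5.60, SE 0.34, edgeR adjusted p = 5.28e-12). Both genes were far above the other cells in both libraries, with no overlap. Fstl1 stood at 1963 and 1987 CPM against 121 and 174 CPM (2.99, SE 0.27, edgeR adjusted p = 3.48e-09). Grem1 stood at 414 and 260 CPM against 117 and 10.2 CPM (2.45, SE 0.40, edgeR adjusted p = 4.77e-05). Bambi was lower, at 48.4 and 64.6 CPM against 184 and 210 CPM (-2.59, SE 0.30, edgeR adjusted p = 2.79e-07). When either library was left out, in a fit that assumes the lone sample to vary like the other groups, Bambi was not called (-1.04 without library 2 and -1.69 without library 3, edgeR adjusted p = 0.430 and 0.216), nor was Fstl1 without library 2 (1.91, edgeR adjusted p = 0.0736). In all 5 of 7 members were called, where 22% of 11747 genes were, 9.14% higher and 12.9% lower. Nog and Chrd were not called, each with 1 to 3 UMIs per library in this class.

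At least 3 of the 9 genes had a UMI in 72% and 74.5% of marrow stromal-like cells of libraries 2 and 3. In annulus or tendon-like cells this share was 30.4%, 33.9% and 32.4% in libraries 1, 2 and 3. It was 28.2%, 25.5% and 25.5% in chondrocyte-like cells and 1.92%, 5.73% and 0% in NP-like cells. These shares are not at equal depth, and the NP-like medians of libraries 1 and 3 were 2913 and 2069 UMIs. Chrdl1 was found in 64.0% and 65.5% of marrow stromal-like cells, Grem1 in 80% and 76.4% and Fst in 60% and 50.9%. In B lineage-like cells Grem1 was found in at most 0.759%, Chrdl1 in at most 0.148% and Fst in at most 0.0365%. Fst was more frequent in neutrophil-like cells, with 80 UMIs in 68 of 6820 cells and a mean share of 1.12% over the libraries. The median marrow stromal-like cell of libraries 2 and 3 held 8249 and 7306 UMIs. At 1000 UMIs per cell the marrow stromal-like shares were 40% and 34.5% for Chrdl1, 32% and 29.1% for Grem1 and 20% in both libraries for Fst.

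Library 1 held only 11 marrow stromal-like cells and was lower for each of these genes, at 94.7 CPM of Chrdl1, 114 CPM of Grem1, 44.2 CPM of Fst and 575 CPM of Fstl1. With it included, Fst (5.03, edgeR adjusted p = 0.00392), Fstl1 (2.29, edgeR adjusted p = 0.0465) and Bambi (-2.90, edgeR adjusted p = 0.0185) remained called. Chrdl1 (4.04, edgeR adjusted p = 0.0773) and Grem1 (1.31, edgeR adjusted p = 0.511) did not. Osteoblast markers summed to 2029 and 2844 CPM and neutrophil markers to 255 and 2103 CPM in the marrow stromal-like cells of libraries 2 and 3, and their part in these results was not tested. Fst overlaps the antisense gene Gm47040 on chromosome 13.

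Loose fibroblast-like cells, the connective tissue type marked by Dpt and Pi16, were the class with the highest Fstl1. Fstl1 stood at 3344 and 2491 CPM in loose fibroblast-like cells of libraries 1 and 3 against 188 and 160 CPM in the other connective cells (log2 fold change 3.63, SE 0.45, edgeR adjusted p = 7.23e-04). It was found in 100% of these cells, 30 and 46, and in 93.3% and 88.9% at 1000 UMIs per cell, against 0.253% and 0.255% of B lineage-like cells. The Fstl1 levels of this class, 2491 to 3344 CPM, did not overlap those of marrow stromal-like cells, 1963 to 1987 CPM.

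Grem1, frequent in chondrocyte-like and marrow stromal-like cells, gave 1 UMI in 664883 here, against 2159 UMIs in the other cells of both libraries. By library it stood at 0 and 2.21 CPM in libraries 1 and 3 against 176 and 18.8 CPM in the other cells. With both libraries pooled, the ratio was 0.0172, with an exact counting interval of 0.000434 to 0.0957. This interval leaves out the difference between libraries and does not describe each one. Grem1 was called lower by edgeR with library as a block (adjusted p = 0.00283). Bambi stood at 37.5 and 31.0 CPM against 64.9 and 211 CPM (-2.35, SE 0.57, edgeR adjusted p = 0.0366), a call lost in 8 of 15 alternatives. Fst stood at 56.3 and 22.1 CPM against 2.32 and 6.56 CPM (2.66, SE 0.78) and was not called (edgeR adjusted p = 0.0864). With the 16 cells of library 2 included it was called (2.58, edgeR adjusted p = 0.0268). In all 3 of 7 members were called, where 5.59% of 12122 genes were, 3.13% higher and 2.47% lower. Without the library block none was called and 5 of the 7 had an unadjusted p under 0.05 by edgeR.

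Annulus or tendon fibroblast-like cells, marked by Fmod, Cilp and Tnmd, had the fewest genes called of the 5 classes with the settings used here, though loose fibroblast-like cells had fewer without the replicate block (0 against 155), with DESeq2's Wald test (479 against 703), in 1 fit over all classes (886 against 1183), with at least 1000 genes per cell (506 against 512) and with a gate of 2 markers (335 against 518). Chrd was higher in them, at 31.8, 22.1 and 21.3 CPM against 12.9, 8.23 and 6.55 CPM in the other connective cells (log2 fold change 1.50, SE 0.26, edgeR adjusted p = 0.0332). Nog was lower, at 10.1, 3.02 and 0 CPM against 53.8, 23.0 and 4.03 CPM (-2.51, SE 0.39, edgeR adjusted p = 0.0250). Chrd values of the class were all above those of the other cells, while Nog values overlapped between libraries and were lower within each. Each call was lost in 4 of 16 alternatives. Without library 1 the edgeR adjusted p was 0.0904 for Chrd and 0.0755 for Nog, without library 2 it was 0.359 and 0.356, and in 1 fit over all classes the log2 fold change of Nog was -0.12. These are 2 of 7 members, where 4.03% of 11520 genes were called, 2.49% higher and 1.54% lower. Fstl1 was at 350, 200 and 643 CPM against 242, 162 and 221 CPM and was not called (0.82, SE 0.24, edgeR adjusted p = 0.139). Chrd overlaps Thpo on the opposite strand of chromosome 16 (Chrd, ENSMUSG00000006958, mm10, 20733127 to 20742384), and how reads in the overlap were assigned is not given in the sources used here.

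By mean level the order of Chrd was annulus or tendon-like at 25.1 CPM, loose fibroblast-like at 20.4, NP-like at 18.5 and chondrocyte-like at 15.6, and each of these overlapped its neighbour in range. Osteoblast-like and marrow stromal-like cells followed at 5.79 and 5.43 CPM, below the lowest chondrocyte-like value of 9.33. Chrd therefore did not separate the first 4 classes. Chrdl1, in contrast, stood at a mean of 419 CPM in marrow stromal-like cells, and the next class, chondrocyte-like, at 29.5 CPM did not overlap it.

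In osteoblast-like cells 4 of the 6 secreted members tested were lower and Bambi was higher. Bambi stood at 132, 290 and 225 CPM in osteoblast-like cells of libraries 1, 2 and 3 against 61.0, 82.4 and 68.5 CPM in the other connective cells (log2 fold change 1.74, SE 0.36, edgeR adjusted p = 0.0398). The groups did not overlap. The call was lost without library 2 (1.57, edgeR adjusted p = 0.204), without library 3 (1.45, edgeR adjusted p = 0.0982) and with a gate of 2 markers, and kept without library 1, whose osteoblast markers were low (2.15, edgeR adjusted p = 0.00392). Endothelial-like cells carried Bambi at 243, 166 and 107 CPM, overlapping the osteoblast-like range. Bambi was found in 58.7%, 82.0% and 81.0% of osteoblast-like cells and in 63.2%, 55.0% and 44.1% of endothelial-like cells, above the B lineage-like shares given earlier. At 1000 UMIs per cell the osteoblast-like shares were 10.9%, 21.2% and 17.3%, and the median osteoblast-like cell held 8777.5, 18997.5 and 18469 UMIs.

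Chrdl1 stood at 3.87, 0.230 and 1.04 CPM in osteoblast-like cells against 46.3, 43.4 and 119 CPM in the other cells (-6.06, SE 0.50, edgeR adjusted p = 0.00440). Nog stood at 7.74, 0 and 0.240 CPM against 53.2, 39.6 and 29.5 CPM (-5.65, SE 0.84, edgeR adjusted p = 0.0158). Both calls were kept in all 16 alternatives, and neither gene's ranges overlapped. Grem1 stood at 58.0, 6.45 and 4.55 CPM against 179, 232 and 114 CPM (-3.67, SE 0.64, edgeR adjusted p = 0.0248) and Fst at 1.93, 0.691 and 0.479 CPM against 3.44, 15.4 and 52.9 CPM (-5.17, SE 0.74, edgeR adjusted p = 0.0140). Library 1, with the weak osteoblast markers, had the highest osteoblast-like value of each of these 4 genes. The Fst call was lost without library 3 (-3.58, edgeR adjusted p = 0.0572), and the Grem1 call in 1 fit over all classes (-1.97, edgeR adjusted p = 0.197). Without library 1 the log2 fold changes were -6.40 for Chrdl1, -6.94 for Nog, -4.49 for Grem1 and -5.60 for Fst, all called. Fstl1 stood at 495, 72.1 and 77.0 CPM against 237, 252 and 1321 CPM, above the other cells in library 1 and below them in libraries 2 and 3 (-1.47, SE 0.90, edgeR adjusted p = 0.371), and it was called without library 1 (-2.57, edgeR adjusted p = 0.0304). Chrd, at 5.80, 6.22 and 5.35 CPM against 14.5, 12.9 and 18.4 CPM, was not called (-1.12, SE 0.27, edgeR adjusted p = 0.0622). In all 5 of 7 members were called, where 11.5% of 11662 genes were, 3.51% higher and 7.97% lower.

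The remaining genes of the pathway were read from a list of 49 ligands, receptors, SMAD proteins, targets, other modulators and Wnt co-receptors. In chondrocyte-like cells 8 of 46 tested were higher and 5 lower, where 5.44% and 7.03% of all genes were, with a median log2 fold change of -0.01 against -0.02 over all genes. Chrdl2, a further chordin-like antagonist, stood at 49.8, 34.7 and 111 CPM in chondrocyte-like cells against 6.96, 0.701 and 0.216 CPM (5.57, SE 0.96, edgeR adjusted p = 0.0210). The joint ligand gene Gdf5 stood at 26.2, 21.6 and 45.8 CPM against 8.86, 1.23 and 0.794 CPM (3.66, SE 0.73, edgeR adjusted p = 0.0309). The BMP target Id1 stood at 399, 319 and 259 CPM against 113, 109 and 50.5 CPM (1.83, SE 0.21, edgeR adjusted p = 0.00710). All were higher in every library. Lrp4, the co-receptor that sclerostin binds, stood at 3.19, 4.08 and 6.54 CPM against 101, 92.0 and 84.0 CPM (-4.61, SE 0.25, edgeR adjusted p = 0.00145). The target Hey1 (-3.36, edgeR adjusted p = 0.00326) and the DAN-family antagonist Nbl1 (-2.91, edgeR adjusted p = 0.00361) were lower too.

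In osteoblast-like cells 4 of 45 were higher and 15 lower, where 3.51% and 7.97% of all genes were, with a median of -0.86 against -0.01 over all genes. The ligand Bmp8a stood at 23.2, 26.5 and 20.7 CPM against 4.30, 2.09 and 2.78 CPM (3.13, SE 0.41, edgeR adjusted p = 0.0108), and the ligand Bmp3 at 83.2, 108 and 134 CPM against 21.8, 18.4 and 15.6 CPM (2.70, SE 0.43, edgeR adjusted p = 0.0192). The inhibitory SMAD gene Smad6 was also higher (1.20, edgeR adjusted p = 0.0487). Of 11 other modulators tested, 7 were lower and 0 higher, among them Smoc1 (-6.88, edgeR adjusted p = 0.00545) and Chrdl2 (-6.74, edgeR adjusted p = 0.00435). The ligand Bmp6 was lower as well, at 5.80, 0 and 0.240 CPM against 64.2, 63.2 and 47.9 CPM (-6.56, edgeR adjusted p = 0.00938).

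Marrow stromal-like cells had 12 of 44 higher and 11 lower, where 9.14% and 12.9% of all genes were, with a median of 0.39 against -0.09 over all genes. The ligands Bmp4, at 110 and 118 CPM against 8.42 and 11.1 CPM, and Bmp5, at 88.0 and 68.9 CPM against 5.61 and 5.99 CPM, were higher (2.75 and 2.93, edgeR adjusted p = 2.38e-07 and 1.49e-06). The target Id4 stood at 273 and 211 CPM against 28.3 and 7.14 CPM (3.30, edgeR adjusted p = 6.11e-09). Bmp7 had 0 UMIs there and, with both libraries pooled, was at least 5.02-fold lower against a floor of 3 UMIs over the class. Bmp3 (-3.85, edgeR adjusted p = 3.61e-08) and Smoc2 (-5.23, edgeR adjusted p = 9.37e-08) were lower.

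In loose fibroblast-like cells 6 of 45 were higher and 3 lower, where 3.13% and 2.47% of all genes were, with a median of 0.09 against -0.12 over all genes. The type I receptor gene Acvrl1 stood at 79.7 and 64.2 CPM against 1.86 and 2.88 CPM (4.45, edgeR adjusted p = 6.02e-04), Bmp4 at 79.7 and 81.9 CPM against 3.16 and 12.4 CPM (3.13, edgeR adjusted p = 0.00824) and Nbl1 at 596 and 859 CPM against 26.9 and 147 CPM (3.06, edgeR adjusted p = 0.00916). Bmp3 had 0 UMIs, against 25.2 and 123 CPM in the other cells of libraries 1 and 3. With both libraries pooled it was at least 17.8-fold lower, a bound for the pool and not for each library. Tob1 (-1.84, edgeR adjusted p = 0.0256) and Id1 (-1.80, edgeR adjusted p = 0.0448) were lower. In annulus or tendon fibroblast-like cells 2 of 46 were higher and 4 lower, where 2.49% and 1.54% of all genes were, with a median of 0.38 against -0.07. The secreted protease gene Htra1 stood at 1052, 1146 and 1224 CPM against 319, 225 and 74.2 CPM (2.71, SE 0.40, edgeR adjusted p = 0.0206), and Smoc1 was higher (1.62, edgeR adjusted p = 0.0425). Bmp7 had 0 UMIs and, with all libraries pooled, was at least 15.1-fold lower. Lrp4 was lower (-3.80, edgeR adjusted p = 0.0105) and so was Bmp3 (-3.59, edgeR adjusted p = 0.0104).

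NP-like cells, which had Sostdc1, also had transcripts of some genes of the list. The levels that follow are examples outside the rule for named genes and were not tested against other classes. Id1, for 1, was at 399, 319 and 259 CPM in chondrocyte-like cells. Id1 stood at 325, 401 and 378 CPM in NP-like cells of libraries 1, 2 and 3, Id2 at 455, 572 and 504 CPM and Id4 at 622, 863 and 631 CPM. The co-receptor gene Lrp6 stood at 63.8, 116 and 28.0 CPM, the last below the level that 0 UMIs would allow in library 3. Among further antagonists, Nbl1 stood at 183, 228 and 350 CPM and Smoc1 at 174, 231 and 238 CPM. In the split of NP-like cells, 24 of the 49 listed genes and 1 of the 11 ligands passed the filter on low counts. In the low-mitochondrial NP-like cells 0 of 24 genes were higher and 9 lower than in the other NP-like cells, where 8.97% and 11.9% of all genes were, with a median of -0.70 against -0.06 over all genes. Htra1 stood at 680 and 630 CPM in low-mitochondrial cells against 2385 and 4803 CPM in the others (-1.97, SE 0.18, edgeR adjusted p = 1.99e-25). The inhibitory SMAD gene Smad7 (-3.15, edgeR adjusted p = 8.60e-05) and the co-receptor gene Lrp5 (-1.70, edgeR adjusted p = 7.16e-04) were lower too.

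Genes with the most similar pattern were sought by Pearson's r of log2(CPM + 1) over 19 library-by-class sums of 7 classes among 9780 genes. These sums share libraries, depth and class composition, so r is a description without a p-value. Sostdc1 was closest to Slc15a5 (r = 0.977), Lypd6b (0.971) and Arhgef16 (0.969). Nog was closest to Gpld1 (0.919), Trim46 (0.842) and Syt8 (0.835), and Chrd to Hebp2 (0.973), Gas1 (0.953) and Htra3 (0.945). Chrdl1 was closest to Ltbp2 (0.912), Thsd4 (0.893) and Dnajc3 (0.891), Grem1 to Adcy2 (0.886), Agt (0.874) and Fgfr2 (0.861), and Fst to Lzts2 (0.867) and C1ra (0.858). Fstl1 was closest to Sept8 (0.956), Pgrmc1 (0.948) and Mbtps1 (0.938), and Bambi to Uaca (0.924), Cdr2l (0.909) and Smox (0.902). With log2(CPM + 10), the closest gene stayed the same for 3 of the 8 genes, Nog, Chrd and Fstl1, and that of Sostdc1 became Cdh6 (0.995).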

How the data were processed

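Single-cell RNA was measured in 3 libraries of tdTomato-enriched disc cells. The authors deposited filtered matrices of UMI counts per gene and barcode, unnormalised. Cell Ranger 3.0.2, Seurat 4 and build mm10 are named in the submitters' processing notes, while the file headers carry software versions 3.0.1, 6.0.0 and 6.0.0. The members and lists were chosen with earlier results of these data known.

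From the counts, cells with at least 500 genes and at most 15% mitochondrial UMIs were kept. A class needed UMIs of 3 markers, and related classes were settled by the larger marker share. Cells in unrelated classes, and cells with tied shares in related or unrelated classes, were dropped as mixed cells. The alternative that kept mixed cells still left out ties. Counts were summed per library and class (at least 20 cells, 10 for NP-like cells) and tested with edgeR 4.0.16 (quasi-likelihood, TMM, filterByExpr, library as block, R 4.3.3), with Benjamini-Hochberg adjustment over all genes tested and calls at adjusted p under 0.05. Library was a block because both sums of a comparison come from the same pool of animals. SE is the log2 fold change divided by the square root of F. Alternatives used DESeq2 1.42.0, other filters, gates, cell minimums and blocks, Scrublet, and each library left out. Scripts used Python 3.11.15 with scanpy 1.11.5 and were tested on simulated data.

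Besides the members, the called genes of the pathway list with the 3 largest and 3 smallest log2 fold changes and at least 20 CPM in the higher sum were named. For each member with at least 200 UMIs, the 3 genes with the highest r were named, markers and mitochondrial, ribosomal, haemoglobin and immunoglobulin genes left out. A count of 0 was given a floor of 3 counts. Bambi's sequence and 1 gene similar to Fst are not reported here.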

Additional observations from a re-analysis of the deposited data

How the results depend on the processing

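The calls of Nog, Grem1 and Fst in chondrocyte-like cells, of Chrdl1 and Nog in osteoblast-like cells and of Fst in marrow stromal-like cells were kept in all alternatives tried. For chondrocyte-like and osteoblast-like cells the minimum of 10 cells changed nothing, so it could not lose a call. For the others the cause of a change was not tested. Removing barcodes shared by libraries and leaving out the NP-like cell with most Fstl1 were chosen after seeing the data. The numbers of a replicate mark the pool from which both sums of a comparison come. With no replicate block in edgeR, the genes called were 155 in annulus or tendon-like, 1203 in marrow stromal-like and 0 in loose fibroblast-like cells (1250 at an unadjusted p under 0.05) and 451 in low-mitochondrial NP-like cells. The members called without the block were 0 in annulus or tendon-like (2 at an unadjusted p under 0.05), 0 in loose fibroblast-like and 1 in low-mitochondrial NP-like cells. Marrow stromal-like Grem1 then had a log2 fold change of 1.67 (edgeR adjusted p = 0.338).

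DESeq2's Wald test called 703 genes in annulus or tendon-like, 1116 in marrow stromal-like and 292 in low-mitochondrial NP-like cells. With no filter on low counts 915 were called in annulus or tendon-like, 2105 in osteoblast-like and 1147 in loose fibroblast-like cells, with 5 members in the last. One fit over all classes called 1183 genes and 1 member in annulus or tendon-like, 2184 genes in osteoblast-like, 1615 in marrow stromal-like and 656 in low-mitochondrial NP-like cells. A minimum of 10 cells gave 834 genes and 3 members in marrow stromal-like and 1132 genes in loose fibroblast-like cells. A gate of 2 markers gave 335 genes in loose fibroblast-like and 1017 in low-mitochondrial NP-like cells, 3 members in osteoblast-like and 0 in low-mitochondrial NP-like cells by edgeR (1 at an unadjusted p under 0.05), and no marrow stromal-like comparison. In low-mitochondrial NP-like cells a gate of 4 markers gave 463 genes and 1 member, keeping mixed cells 930 genes, a mitochondrial limit of 2% gave 552 genes, and 1 member was called without the cell with most Fstl1.

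Leaving out a library in turn gave 702 to 2531 genes and 3 to 5 members in chondrocyte-like, 0 to 630 genes and 0 to 3 members in annulus or tendon-like, 618 to 2427 genes and 3 to 6 members in osteoblast-like, 547 to 688 genes and 3 to 4 members in marrow stromal-like, 286 to 696 genes and 2 to 3 members in loose fibroblast-like and 140 to 262 genes and 0 to 1 members in low-mitochondrial NP-like cells. The 0 genes of annulus or tendon-like cells came without library 2, where edgeR gave 1032 genes and 3 members at an unadjusted p under 0.05. Without library 1 it gave 5 members at that level, and in low-mitochondrial NP-like cells without library 2 it gave 1. For marrow stromal-like, loose fibroblast-like and low-mitochondrial NP-like cells these fits ran over all classes, because 1 library was left for the comparison. The mean Sostdc1 level of NP-like cells ranged from 506 to 1015 CPM when a library was left out.

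Signs changed for members that were not called, except Bambi in chondrocyte-like cells (0.0049 in one fit over all classes). In annulus or tendon-like cells that fit gave 0.81 for Bambi, -0.24 for Fstl1 and 0.89 for Grem1, while Bambi ran from -1.004 to 0.15 when a library was left out, and Fst was -1.30 with a gate of 2 markers and ran from -0.40 to 1.23 when a library was left out. Chrd ran from -0.25 to 0.50 in chondrocyte-like cells when a library was left out and was -0.16 in loose fibroblast-like cells with a gate of 2 markers. Nog in loose fibroblast-like cells was 0.58 in one fit, 0.39 without library 1 and 0.79 without library 3. Depth limits the NP-like cells of library 3, where 0 UMIs allow up to 42.0 CPM.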
